A study of Mus musculus with 2 samples.

Results

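Mir143, Mir145a and Mir145b are the mouse genes of the miR-143 and miR-145 hairpins, best known from smooth muscle. They were taken by their GENCODE symbols, and all 3 were present among the 1973 miRNA genes counted in each library. The samples were small RNA of under 30 bases from the facial prominences of healthy mouse embryos of strain B6NCrl at 12.5 days, both sexes pooled. The tissue came as a pool of 120 embryos in replicate 1 and a pool of 88 embryos in replicate 2. No other tissue, age or treatment was analysed here, so the values are levels within this tissue and differences between the 2 pools, with no comparison of conditions. Whether the pools shared litters or days is not stated in the labels.

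Mir143 and Mir145a are known to be cut from the same primary transcript, and Mir145b carries a related hairpin at a separate place. In smooth muscle, serum response factor and its partner myocardin drive this transcript. The mature miRNAs repress Klf4 and Elk1, which favour growth over contraction. In the embryonic face, smooth muscle cells and pericytes of the vessel wall arise largely from neural crest, the same source as the facial mesenchyme. The tables hold miRNA genes alone, so the smooth muscle label of these genes could not be set against muscle proteins.

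The levels of Mir143 and Mir145a are set below beside other genes studied in the vessel wall, and the mature RNAs of 4 of these are shown for that reason, from RefSeq on GRCm38.p6, with the seed (bases 2 to 8) in capitals. The gene counts join both arms of a hairpin, so the values belong to the gene and not to the arm shown.
miR-126a-3p: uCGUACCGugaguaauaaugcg
miR-221-3p: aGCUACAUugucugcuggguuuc
miR-222-3p: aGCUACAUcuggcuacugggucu
miR-21a-5p: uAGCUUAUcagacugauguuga
The 3p arms of Mir221 and Mir222 have the same seed. The arms shown for Mir126a and Mir21a have seeds of their own, so these 4 arms form 3 seed groups. Other arms of these genes are not part of this grouping.

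Mir143 was among the most abundant miRNA genes of the facial prominence, Mir145a was an intermediate one, and Mir145b had no read. Levels are in CPM, the reads on a gene's own strand per 1000000 such reads over all genes. They are not scaled by length, since reads of this size come from the mature RNA and not from the whole hairpin. Mir143 had 59304 reads in replicate 1 and 96552 in replicate 2. That is 12566 CPM (exact Poisson interval 12465 to 12668 at the 95% level) in replicate 1 and 16284 CPM (16181 to 16387) in replicate 2. Replicate 2 was the higher, and the intervals, which cover counting error only, did not overlap. The mean was 14425 ± 2629 CPM (SD, n = 2).

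Mir145a had 923 reads in replicate 1 and 1623 in replicate 2. Its level was 196 CPM (interval 183 to 209) in replicate 1 and 274 CPM (261 to 287) in replicate 2, with a mean of 235 ± 55.3 CPM (SD, n = 2). As with Mir143, replicate 2 was higher and the intervals did not overlap. Mir145b had 0 reads in both libraries. A floor of 3 counts per library stands at 0.636 CPM in replicate 1 and 0.506 CPM in replicate 2. The upper ends of the exact Poisson intervals were higher, at 0.782 and 0.622 CPM. A count of 0 in both libraries was common, at 1192 of the 1973 genes (60.4%). Mir145a stood at 308 times the floor of 3 counts in replicate 1 and at 541 times in replicate 2. These folds are set by the floor, as Mir145b itself had no read. None of the 3 genes had a read on the opposite strand, as was the case for 340 of the 395 genes with at least 10 own-strand reads in both libraries (called detected from here on).

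Together the 3 genes held 1.28% of gene reads in replicate 1 (exact Clopper-Pearson interval 1.27 to 1.29) and 1.66% in replicate 2 (1.65 to 1.67), or 1.47% ± 0.268 (SD, n = 2). Mir143 alone held 1.26% and 1.63%, so it gave nearly the whole share. The share of Mir145a was 0.0196% in replicate 1 and 0.0274% in replicate 2.

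All 3 genes lie on the minus strand of chromosome 18 on GRCm38, the assembly that mm10 denotes. Mir143 (ENSMUSG00000065445.2) spans positions 61649196 to 61649258, and Mir145a (ENSMUSG00000065592.1) spans 61647825 to 61647894. The hairpins are 63 and 70 bases long and lie 1301 bases apart, Mir145a being downstream of Mir143 in the direction of transcription. In GENCODE M21 neither lies in a host gene on its strand. The noncoding gene Carmn, from which the primary transcript is known to come, spans 61649625 to 61665537 there and ends 366 bases upstream of Mir143. In RefSeq, Carmn spans 61645878 to 61665538 and contains both hairpins. Mir145b (ENSMUSG00000098366.1) lies 7.37 megabases from Mir143, at positions 69022199 to 69022273, and it too has no host gene in GENCODE. None of the 3 hairpins held a stretch of 20 bases found in a miRNA gene elsewhere, Mir145a and Mir145b included. Reads with several mapping places were counted to no gene and made up 26.0% of all reads in replicate 1 and 27.9% in replicate 2. How many of them, if any, came from shorter stretches that Mir145a and Mir145b share was not tested.

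In the order of mean CPM over the 395 detected genes, Mir143 was number 19 and Mir145a number 156. Reads with several mapping places are not in this order. The 86 detected genes that share sequence with a copy may therefore stand too low in it. Mir143 was number 20 in replicate 1 and number 16 in replicate 2. The genes next above it were Mir182 of sensory cells (15378 CPM in replicate 1 and 15659 in replicate 2), Mir93 of the miR-17-92 paralogs (14988 and 15191 CPM) and Mir140 of cartilage (15199 and 14466 CPM). The gene next below was Mir652 (13402 and 14011 CPM). The range of Mir143 overlapped those of these 4 genes, and its order among them differed between the libraries. Counting every detected gene, 5 had a range that overlapped that of Mir143, all between numbers 15 and 20. The ranges of Mir23a (12521 and 12297 CPM) and Mir183 (12397 and 9896 CPM), which follow Mir652, lay wholly below that of Mir143. The gap to Mir23a, 12566 against 12521 CPM in replicate 1, was within the counting interval of Mir143, and Mir23a shared sequence with a copy elsewhere.

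Mir145a was number 168 in replicate 1 and number 152 in replicate 2, and its mean lay above 60.5% of the detected genes, whose median was 122 CPM. Next above it were Mir199a-2 of mesenchyme (222 and 278 CPM in replicates 1 and 2), Mir362 (225 and 266 CPM) and the erythroid gene Mir451a (186 and 294 CPM). Next below were Mir493 (277 and 186 CPM), Mir679 (257 and 204 CPM) and Mir667 (247 and 207 CPM). None of these 6 differed from Mir145a beyond the spread of the libraries, and 25 genes in all, from number 134 to number 185, had ranges that overlapped its own. Those next above were higher in replicate 2, like Mir145a, and those next below were higher in replicate 1.

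**Figure D1:**
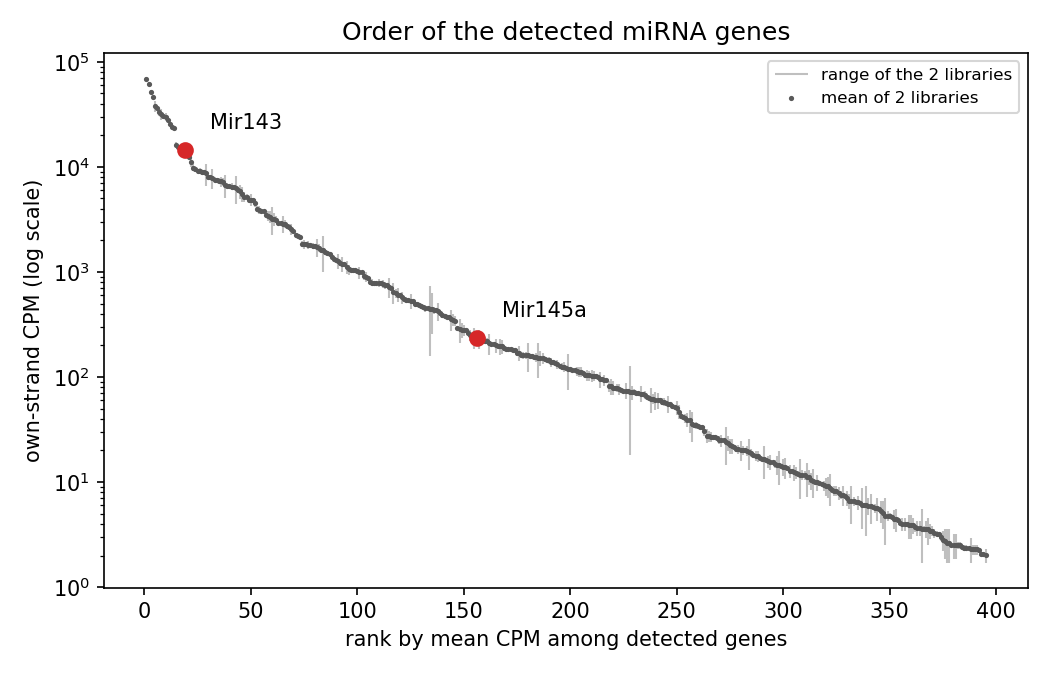
Own-strand CPM of the 395 detected genes on a log axis against their rank by mean CPM. Dots are means of 2 libraries, vertical lines the range of the libraries, and red marks Mir143 (rank 19) and Mir145a (rank 156), which lie on the steep upper part and in the middle of the curve.

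Although they are neighbours, Mir143 had 64.3 times the reads of Mir145a in replicate 1 (exact interval 60.2 to 68.6) and 59.5 times in replicate 2 (56.6 to 62.5), a mean of 61.9 ± 3.37 (SD, n = 2). The intervals of the libraries overlapped. The library total cancels in this fold. Mir145a made up 1.53% of the pair's reads in replicate 1 (exact Clopper-Pearson interval 1.44 to 1.63) and 1.65% in replicate 2 (1.57 to 1.73). Per base of annotated hairpin the fold was 71.4 in replicate 1 and 66.1 in replicate 2. How evenly the library preparation takes up different miRNAs was not tested, so the fold is one of reads.

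Unequal levels of neighbouring miRNA genes were common in this tissue. Among detected genes on the same strand with starts at most 10 kb apart there were 348 pairs, formed by 152 genes, and 224 of the pairs lay on chromosome 12, which holds the Dlk1-Dio3 imprinted cluster. Pairs of the same cluster share genes and are not independent. The fold of the higher over the lower mean CPM had a median of 6.88. For Mir143 and Mir145a it was 61.5, number 59 in order, so 58 pairs (16.7%) were further apart. The place moved with the set of pairs taken. With a minimum of 100 counts, 32 of 301 pairs (10.6%) were further apart. Genes that share sequence with copies can be undercounted, but how far this moved the place was not tested. In 249 pairs neither gene shared a stretch of 20 bases with a copy, and of these 20 (8.03%) were further apart than Mir143 and Mir145a.

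The pairs with the widest folds were Mir322 over Mir450-2 (3405-fold), Mir127 over Mir3070a (2531-fold) and Mir431 over Mir3070a (2343-fold), and each of these held a gene with a copy. Mir322 belongs to an X-linked cluster, and Mir127 and Mir431 to the Dlk1-Dio3 cluster. The nearest pairs in order to Mir143 and Mir145a were Mir181a-1 over Mir181b-1 (62.0-fold), whose genes have copies, and Mir370 over Mir1188 (61.1-fold). The narrowest were Mir363 and Mir20b (1.01-fold), Mir293 and Mir294 (1.01-fold) and Mir377 and Mir412 (1.01-fold).

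Clusters of exactly 2 detected genes, a set that was added after the pairs had been seen, are the closest in form to Mir143 and Mir145a. There were 28, with a median fold of 9.05, and 7 had a wider fold. These were Mir99a over Mirlet7c-1 (613-fold), Mir30e over Mir30c-1 (340-fold), Mir214 over Mir199a-2 (183-fold), Mir100 over Mirlet7a-2 (174-fold), Mir30d over Mir30b (73.0-fold), Mir206 over Mir133b (65.9-fold) and Mir181a-1 over Mir181b-1. In all but Mir30d over Mir30b, a gene shared sequence with a copy.

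**Figure D2:**
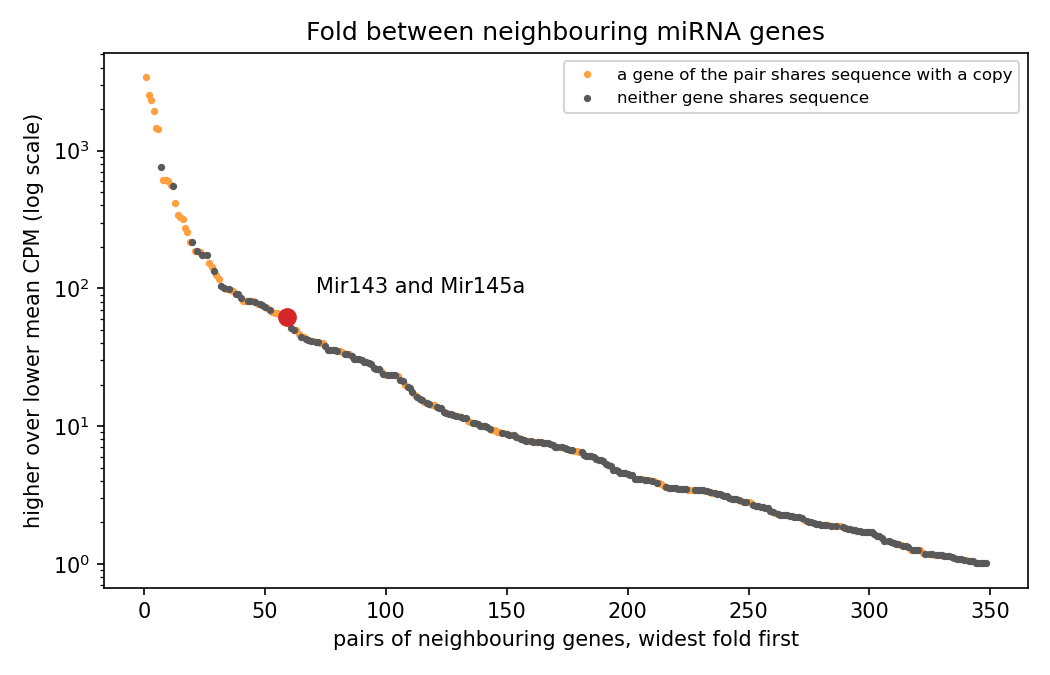
Fold of the higher over the lower mean CPM (log axis) for 348 pairs of neighbouring detected genes, ordered from widest to narrowest. Orange pairs hold a gene that shares sequence with a copy and grey pairs hold none; the red point is Mir143 and Mir145a, number 59 at 61.5-fold, above the median of 6.88.

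Both detected genes of the pair were higher in replicate 2. For Mir143 the log2 ratio of replicate 2 over replicate 1 was 0.37 (exact interval 0.36 to 0.39), a 1.30-fold difference. The log2 ratio of Mir145a was 0.49 (0.37 to 0.60), or 1.40-fold. The intervals of the pair overlapped, and the ratios differed by 0.11. Over all 348 neighbouring pairs the median gap between the ratios was 0.23, and 74.7% of pairs had a wider gap than Mir143 and Mir145a. Many of these pairs hold a gene with fewer reads than Mir145a, and ratios of low genes spread more widely. The place of the gap among pairs of like level was not tested. With 1 library in each pool there is no replicate check of a difference between the pools, and no p is given. As these are bulk samples, fewer cells of a type and less RNA per cell cannot be told apart.

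Differences of this size were not rare. Of the 395 detected genes, 15.7% were at least 25% higher in replicate 2, as both Mir143 and Mir145a were. At least 1.5-fold apart in either direction were 13.9%, and neither Mir143 nor Mir145a was among them. The interval of Mir145a did reach 1.52-fold. A higher log2 ratio was found for 50 genes (12.7%) in the case of Mir143 and for 28 genes (7.09%) in the case of Mir145a. Over all detected genes the median log2 ratio was 0.0026. Low genes spread more widely. Among the 100 genes of at least 1000 CPM, 6 were at least 25% higher in replicate 2, Mir143 being 1 of them. In this set the genes whose ratio was nearest to that of Mir143, over the 2 libraries, were Mir708 (2931 and 3776 CPM, log2 ratio 0.37), Mir322 (33299 and 42672 CPM, 0.36) and Mir27b (2267 and 2830 CPM, 0.32). With only 2 libraries, such likeness says no more than that the ratios were close.

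**Figure D3:**
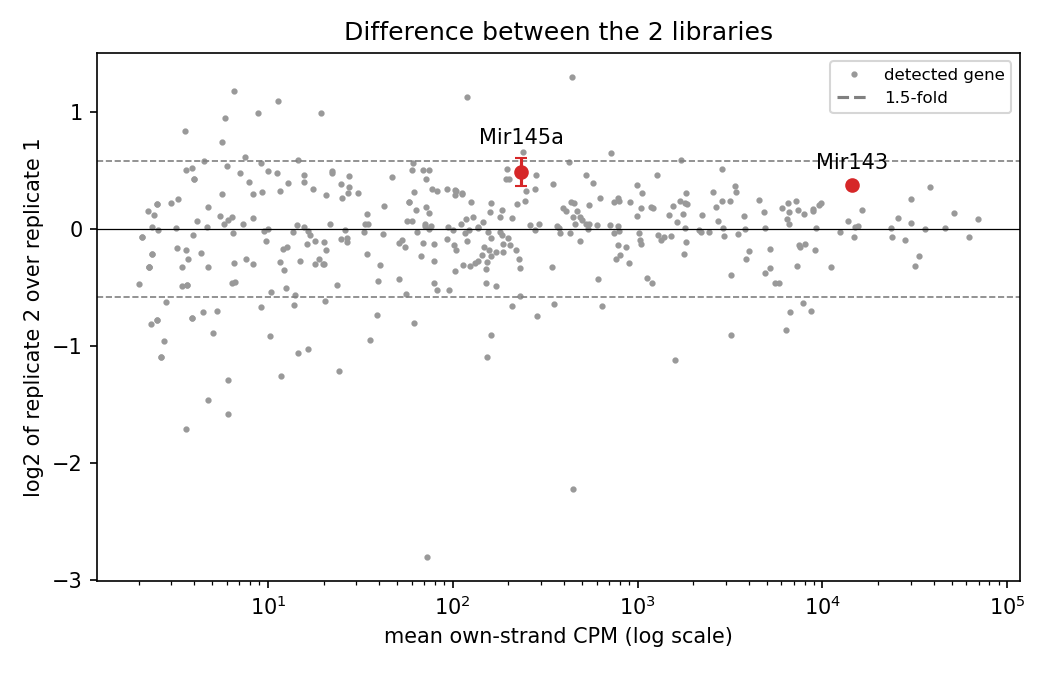
Log2 ratio of replicate 2 over replicate 1 against mean own-strand CPM (log axis) for the 395 detected genes in grey. Red points are Mir143 (0.37) and Mir145a (0.49) with exact binomial intervals. Both points lie above 0 and below the dashed line at 1.5-fold, which the upper end of the Mir145a interval (0.60) passes.

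Among the other miRNA genes studied in vascular smooth muscle, 12 of the 13 on the list were measured and all 12 were detected, with a median of 143 CPM against 122 CPM for all detected genes. Together they held 3.51% of gene reads in replicate 1 and 3.57% in replicate 2, more than Mir143, Mir145a and Mir145b together. Mir100 gave most of this share. Without it, the rest of the list held less than Mir143, Mir145a and Mir145b together in both libraries. Mir100 was higher than Mir143 in both libraries, at 24528 CPM in replicate 1 and 23317 CPM in replicate 2. Mir21a, a growth-promoting gene induced in injured vessels, stood at 6617 and 7785 CPM, so Mir143 was 1.90 and 2.09 times as high. Mir221 (148 and 173 CPM) and Mir222 (109 and 112 CPM), which favour growth of smooth muscle cells and share the seed shown above, lay below Mir145a in both libraries. The remaining 8 genes lay between a mean of 6.07 CPM (Mir490) and 3154 CPM (Mir181b-2). A stretch of sequence was shared with a copy by 5 of the 12, which may be undercounted. The list's median log2 ratio between the libraries was 0.15, with 9 of 12 higher in replicate 2, against 50.4% of all detected genes. At least 25% higher there was 1 of 12, Mir10a (341 and 507 CPM), against 15.7% of all detected genes.

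The endothelial gene Mir126a, which maintains vessel integrity, stood at 29030 CPM in replicate 1 and 27230 CPM in replicate 2. Mir143 was at 0.433 of this level in replicate 1 and 0.598 in replicate 2. Mir126a was slightly lower in replicate 2 (log2 ratio -0.09), where Mir143 was higher.

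Of the striated muscle genes, 9 of 10 were measured and 6 were detected, and 5 of the 9 shared sequence with a copy. Together they held 0.119% of gene reads in replicate 1 and 0.156% in replicate 2. Mir143, Mir145a and Mir145b together had 10.7 and 10.6 times their reads. Many of the listed genes also act in other cells, so these are folds of genes and not of cell types. Genes with copies may be undercounted here. Mir1a-1, Mir133a-1 and Mir133a-2, which have copies, had at most 1 read in a library, and Mir1a-2 was not measured. The folds are thus of counted reads and may be too high. The highest was Mir206 of skeletal muscle at 1068 and 1472 CPM, below Mir143 and above Mir145a in both libraries. The heart genes Mir208b (78.8 and 45.0 CPM) and Mir208a (16.5 and 6.91 CPM) lay below Mir145a.

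Genes of other cell types in the tissue also differed between the libraries, and their values stand here beside the difference of Mir143 and Mir145a. The skeletal mesenchyme gene Mir214 was level, at 45630 CPM in replicate 1 and 45910 CPM in replicate 2. The mesenchyme and cartilage list of 6 genes had a median log2 ratio of 0.07. In replicate 2, 4 of the 6 were higher, against 50.4% of all detected genes, and 2 were at least 25% higher, against 15.7%. The log2 ratio was 0.36 for Mir199a-1, 0.33 for Mir199a-2 and 0.13 for Mir199b, but -0.07 for Mir140 and -0.22 for Mir455. All 7 epithelial genes were detected. Their summed share was 3.08% in replicate 1 and 3.58% in replicate 2, with a median log2 ratio of 0.22, and 6 of 7 were higher in replicate 2, against 50.4% of all detected genes. All 3 erythroid genes were detected, at a summed share of 0.0223% in replicate 1 and 0.0331% in replicate 2, with a median log2 ratio of 0.34 and with 2 of 3 higher in replicate 2, against the same 50.4%. Mir451a, which is abundant in red blood cells, had a ratio of 0.66, Mir144 had 0.34 and Mir486 had -0.30. Of the 6 detected striated muscle genes, 3 were higher in replicate 2 and the median log2 ratio was -0.24, with Mir206 at 0.46 and Mir133b at 0.99 but Mir208b at -0.81, Mir208a at -1.26 and Mir1b at -1.71. No measured gene of these lists was at 0, apart from Mir133a-2 of striated muscle in both libraries and Mir1a-1 and Mir133a-1 in replicate 1, all of which have copies. What part a different mix of cells had in the ratios of Mir143 and Mir145a was not tested.

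**Figure D4:**
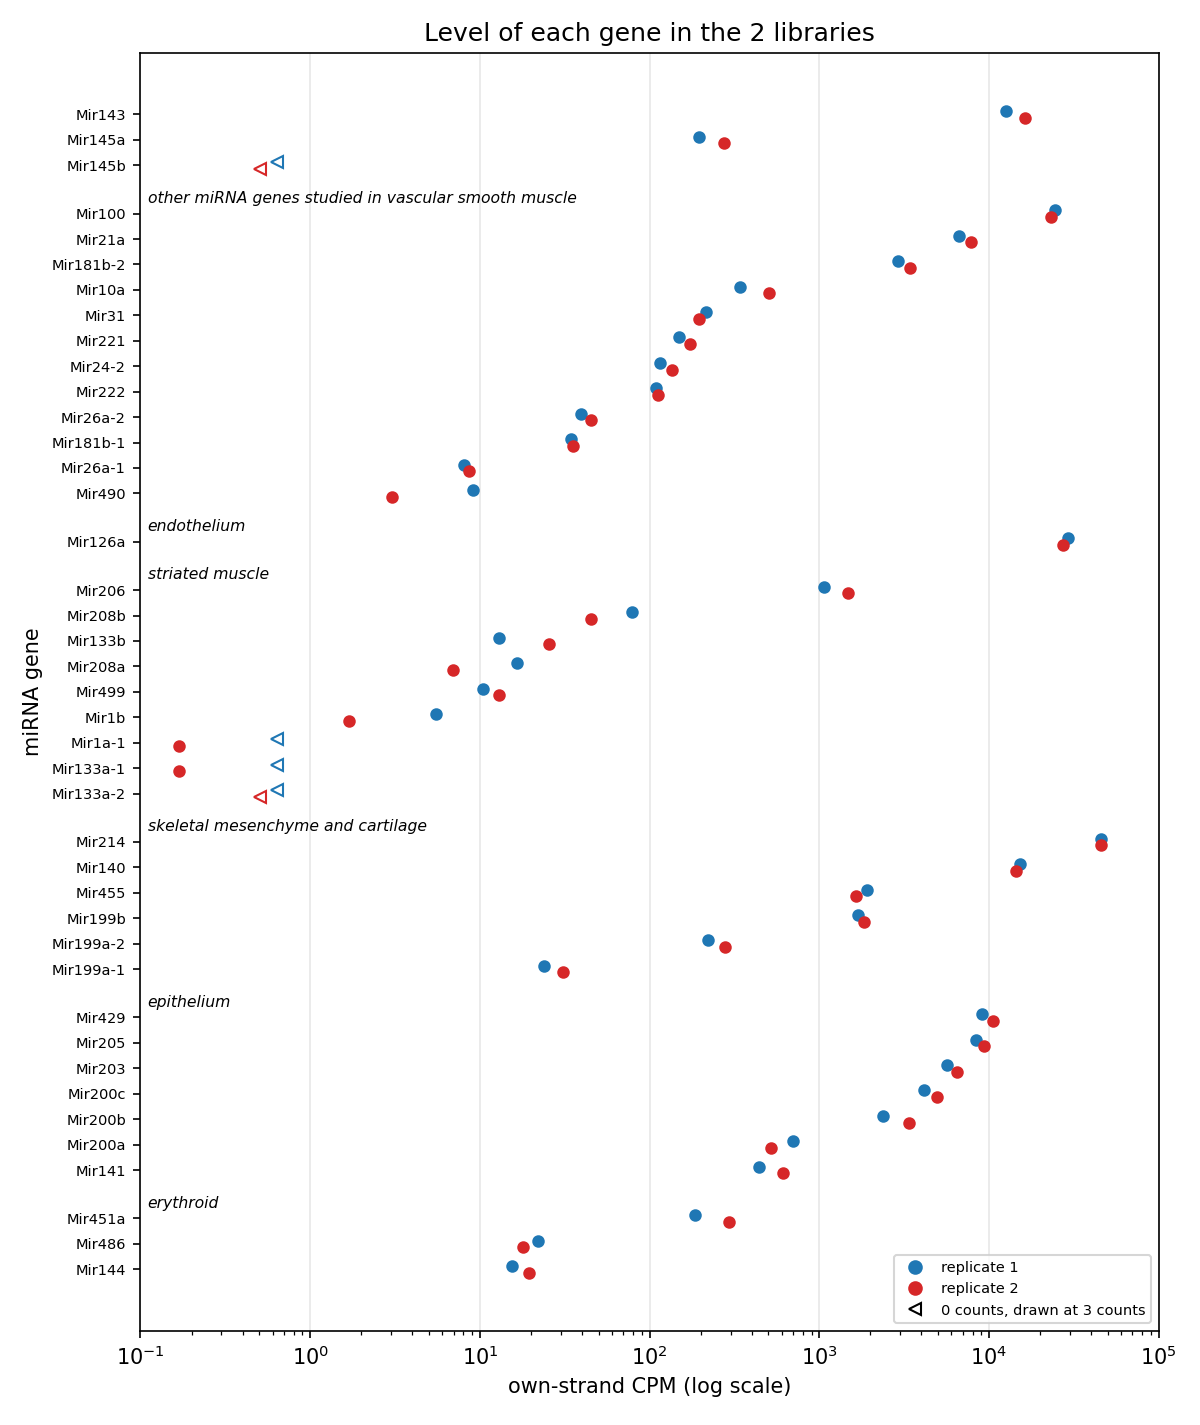
Own-strand CPM (log axis) of Mir143, Mir145a and Mir145b and of the genes on 6 lists, with replicate 1 in blue and replicate 2 in red; open triangles mark a count of 0, drawn at the level of 3 counts. Mir143 lies at 12566 and 16284 CPM, Mir145a at 196 and 274 CPM, and Mir145b is at 0 in both libraries.

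The depth behind these values was 11414919 reads in replicate 1 and 12792420 in replicate 2, and own-strand gene reads made up 41.3% and 46.3%. Unmapped reads made up 25.7% and 19.4%. Replicate 2 was thus the deeper library and also held the larger share of miRNA reads. Per 1000000 of all reads, Mir143 had 5195 reads in replicate 1 and 7548 in replicate 2, and Mir145a had 80.9 and 127.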

How the data were processed

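Small RNA from 2 pools of facial prominence was sequenced, 1 library a pool. For each library the authors deposited raw counts, as whole reads on each miRNA gene. Per the library descriptions the genome was mm10 and the annotation GENCODE M4. Aligner and counter are not given in the sources used here. Of the 3 count columns, the one with 96.8% (replicate 1) and 96.7% (replicate 2) of gene reads was taken as the own strand. Entries for unmapped reads, reads with several places and reads outside genes (5.57% and 4.72%) were kept out of the library totals.

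Symbols and positions came from GENCODE M21, matched by Ensembl identifier for 1894 of 1973 genes. CPM, exact intervals and folds were computed with scipy 1.17.1. The fold intervals were also run on simulated counts with counting error only, and 94.2% of them held the true fold. Such counts have no spread between pools, so the simulation cannot speak to that spread. Intervals and floors cover counting error only. Genes had to reach 10 counts in both libraries (2.12 and 1.69 CPM). Scaling by edgeR 4.0.16 TMM factors and by DESeq2 1.42.0 size factors, other strands, minima and distances, and leaving out each library were the alternatives. With 1 group of 2 libraries no model was fitted and no p-value computed. The genes named were the 3 members, the 3 genes next above and below each detected one, the list genes, and the widest, nearest and narrowest pairs. The members, lists and folds were chosen with earlier results of these data known.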

Additional observations from a re-analysis of the deposited data

How the results depend on the processing

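Leaving out each library in turn gave 12566 to 16284 CPM for Mir143, 196 to 274 CPM for Mir145a, a summed share of 1.28 to 1.66%, a fold of 59.5 to 64.3 between Mir143 and Mir145a, and ranks of 16 to 20 for Mir143 and 152 to 168 for Mir145a. With all reads of the table as the total, the means were 6371 reads per 1000000 for Mir143 and 104 for Mir145a, since the total then holds unmapped and multi-mapped reads. The log2 ratios of replicate 2 over replicate 1 were then 0.54 and 0.65, and the median of all detected genes moved to 0.17. Among genes without shared sequence Mir145a was number 130. The share of neighbouring pairs with a wider fold was 15.2 to 16.4% with a library left out, 14.5% within 50 kb, 10.6% with a minimum of 100 counts and 8.03% without shared sequence. It was 19.3% among consecutive genes and 25% among clusters of 2 detected genes, both added after the data had been seen. A distance of 1 kb gave no value, since Mir143 and Mir145a lie further apart. With a minimum of 100 counts, 22 of 277 genes (7.94%) were at least 1.5-fold apart, against 55 of 395 (13.9%) with 10 counts, and 35 (12.6%) against 62 (15.7%) were at least 25% higher in replicate 2, so the shares fell as well as the counts. No paired analysis was possible because there is 1 group. No alternative changed the direction of a ratio. Genes with few reads are the least certain, and the order of Mir145a among its neighbours is within the spread of the libraries.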
